A study of Mus musculus with 16 samples.

Results

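The late phase of a TGFβ response was examined as the difference between 16 h and 4 h of treatment, taken within each of 2 mouse embryo fibroblast lines. It rests on 4 of the 16 libraries of the series, chosen by their labels: a 4 h and a 16 h library of wild-type fibroblasts (Ark+/+, called WT) and a 4 h and a 16 h library of fibroblasts without Arkadia (Ark-/-, called null). Arkadia, encoded by Rnf111, is a RING-type ubiquitin ligase known to mark inhibitors of TGFβ signalling for destruction. Both lines were grown in DMEM with 10% fetal bovine serum and given TGFβ at 2.5 ng/ml, and poly(A) RNA was sequenced with strand kept. The spread of each gene was taken from libraries of the same lines at 0 and 1 h (set A) and, in some fits, also from set B, which holds null cells at 0 and 1 h and null cells given wild-type Arkadia (rvWT) or its sim mutant by retrovirus at 0, 1 and 4 h. There was 1 library for each line and time. Each genotype was represented by 1 line, so an effect of Arkadia and one of the line cannot be told apart, and cells kept for 16 h without TGFβ were not analysed here, so TGFβ and time in culture cannot be told apart. The labels do not say that the libraries came from separate cultures, so the p-values measure a spread between libraries that may be technical in part.

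TGFβ binds a pair of receptor kinases that phosphorylate SMAD2 and SMAD3, which enter the nucleus with SMAD4 and act on target genes. Feedback inhibitors such as Smad7 and transcription factors such as Snai1 are typical of the first hours in fibroblasts. Later hours are known for collagens and other matrix proteins, for smooth-muscle actin and other contractile proteins of the myofibroblast, and for effects on growth and metabolism that can pass through factors made in the first hours.

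The values are FPKM, fragments scaled by transcript length and by library size, for 12100 genes, and read depth is unknown. Differences are given on a log2 scale after adding 1 FPKM, which understates the change of genes with low values. Rnf111 followed the labels, at 14.5 to 15.1 FPKM in the WT libraries of set A and at 0.121 to 0.198 in the null ones. Of 16 fibroblast markers 13 were in the table and summed to 2490 to 6403 FPKM. Of 14 epithelial markers 7 were measured, and their sum went from 379 to 320.5 FPKM between 4 and 16 h in WT, mostly Krt19, and went from 57.7 to 74.8 in null. Endothelial, haematopoietic, neural, muscle, adipocyte and cartilage or bone markers summed to at most 175 FPKM in any library of set A. In bulk RNA, fewer cells of a type and less RNA per cell cannot be told apart. In set A, 211 genes had 1 or more libraries below 0.1 FPKM while reaching 5 FPKM elsewhere in the set, 122 of them not small RNAs, so an exact 0 can be a failed estimate. The WT 16 h library listed 155 genes at 0, against 97 to 102 in the other WT libraries.

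Averaged over the 2 lines, 6 of 10976 genes passed limma's test between 4 and 16 h (Benjamini-Hochberg adjusted p below 0.05), which is 0.0547% of those tested. The fit used the 8 libraries of set A with the line as a block and had 3 residual degrees of freedom. At an unadjusted p below 0.05 there were 437 genes higher and 475 lower at 16 h. The 6 were the collagen gene Col11a1, the asparagine synthetase gene Asns and the small nucleolar RNA Snord65 on the higher side (0.0273%), and the growth-factor binding protein gene Igfbp4, the adhesion protein gene Kirrel and Snord88c on the lower side (0.0273%). Snord65 was listed at 0 at 4 h in both lines, Snord88c at 0 at 16 h in both, and Kirrel at 0 at 1 h and at 16 h in both, between 13.8 and 24.2 FPKM in the other libraries of set A. Mir31, Snora62 and Snord95 were likewise listed at 0 at 16 h in both lines and at 5 FPKM or more at 4 h in both, without passing. Without the genes that drop out in this way, 1 gene passed.

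Each line was then tested on its own, with the spread of the 12 other libraries of the series (5 residual degrees of freedom). In WT 217 of 11045 genes passed (1.96%), 99 higher (0.896%) and 118 lower (1.07%) at 16 h. In null 775 passed (7.02%), 258 higher (2.34%) and 517 lower (4.68%). The same direction in both lines, a rule chosen after the averaged test had been seen, was found for 72 genes (0.652%), 29 higher (0.263%) and 43 lower (0.389%). Of these 72, 24 passed in both lines in each of the 12 fits that left out 1 library. Those fits left out only libraries outside the 4 compared. The differences between 16 and 4 h therefore stayed the same, and only the spread and the p-values moved. A call held in all 12 says nothing on whether the 4 compared libraries would repeat. The count in WT was 70 without the null 0 h or 1 h library of set A or the rvWT 0 h library, and the count of shared genes was then 26 to 27. Among the shared genes named here, the WT call held in 0 of the 12 fits for Actg2 and Cry1, in 1 for Cp and Fth1, in 2 for Col5a3, Lgals2, Lgals3, Plin2, Tspan4 and Upk1b, and in 3 for Loxl2, Mgst1, Mmp13, Pdgfc, Rbp4 and Upk3b. The null call held in 1 fit for Klhl30, in 2 for Cry1, Lgals2 and Pcyox1, and in 3 for Tpm1. A difference of at least 1 on the log2 scale in both lines, with no test, was found for 9 genes higher (0.082%) and 15 lower (0.137%). Over all 10976 genes the median difference was 0.024 in WT and -0.024 in null, and 25.9% were higher and 26.1% lower at 16 h in both lines.

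**Figure D1:**
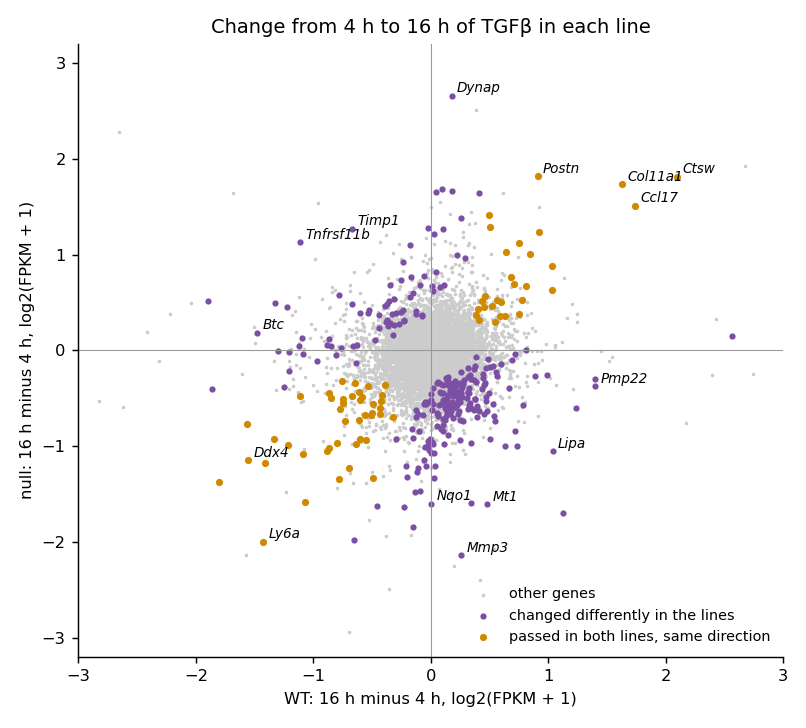
Difference between 16 h and 4 h of TGFβ in WT (x axis) and in null (y axis), each on the log2(FPKM + 1) scale, with 1 point per gene and small RNAs left out. Orange points passed limma's test in both lines in the same direction, purple points differed between lines, and 14 of 10909 genes lie outside the axes.

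Col11a1, a chain of the collagen that starts fibrils, was the leading late gain. It stood at 10.5, 9.94, 18.3 and 58.5 FPKM in WT at 0, 1, 4 and 16 h, and at 7.29, 6.82, 11.2 and 39.6 FPKM in null. Both lines were at their highest at 16 h, and the 16 h values of the 2 lines lay above every earlier value. The mean difference between 16 and 4 h was 1.68 ± 0.08 (SE, limma adjusted p = 0.0077), and it was 1.63 in WT and 1.73 in null (SE 0.06 each). The averaged call was lost without WT 1 h or null 4 h, while both line calls passed in all 12 fits with 1 library left out.

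Of 19 collagen genes tested, 8 rose and 2 fell in WT, and 9 rose and 2 fell in null, with 5 rising and 2 falling in both lines. Of all genes 0.896% rose and 1.07% fell in WT, 2.34% and 4.68% in null, and 0.263% and 0.389% in both. The median difference was 0.38 in WT and 0.37 in null, and 12 of the 19 (63.2%) were higher at 16 h in both lines, where 25.9% of all genes were. The count of risen collagens in WT was 4 without either null library of set A at 0 or 1 h, either null library of set B or rvWT 0 h, and 5 without sim 0 h. Col5a2, whose product regulates fibril width together with collagen I, was at 311 FPKM at 4 h and 469.5 at 16 h in WT and at 221 and 315 in null (0.59 and 0.51, SE 0.06, adjusted p = 0.0079 and 0.0062). Col5a3 of the same family went from 12.1 to 23.8 FPKM in WT and from 4.32 to 11.5 in null (0.92 and 1.23). Col8a1, a short-chain collagen of vessel walls and of wounds, went from 6.45 to 10.6 FPKM in WT and from 28.1 to 58.6 in null (0.64 and 1.03). Col1a2, a chain of collagen I, rose by 0.38 in WT (59.0 to 77.1 FPKM) and by 0.37 in null (164 to 211 FPKM). Its partner chain Col1a1 rose in null from 1255 to 1942 FPKM (0.63, adjusted p = 0.046), and it went from 693 to 829 FPKM in WT without passing (0.26, adjusted p = 0.45). The call of Col1a1 in null held in 2 of the 12 fits that left out a library.

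Collagen VI, a microfibril collagen made of 3 chains, went the other way in 2 of its chains. Col6a1 was at 119, 120.1, 83.5 and 45.9 FPKM in WT at 0, 1, 4 and 16 h and at 206, 188, 165 and 117 FPKM in null. Col6a2 was at 77.1, 82.9, 59.7 and 27.1 FPKM in WT and at 124, 117, 109 and 77.9 in null. Both genes were at their lowest at 16 h in each line, below every earlier library of that line. The late differences were -0.85 in WT and -0.50 in null for Col6a1 (SE 0.08), and -1.11 and -0.48 for Col6a2 (SE 0.08), and all 4 calls held in each of the 12 fits. The third chain, Col6a3, rose in null from 9.70 to 15.7 FPKM (0.64, adjusted p = 0.0062) and was at 2.14 and 2.36 FPKM in WT (0.10, adjusted p = 0.62).

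**Figure D2:**
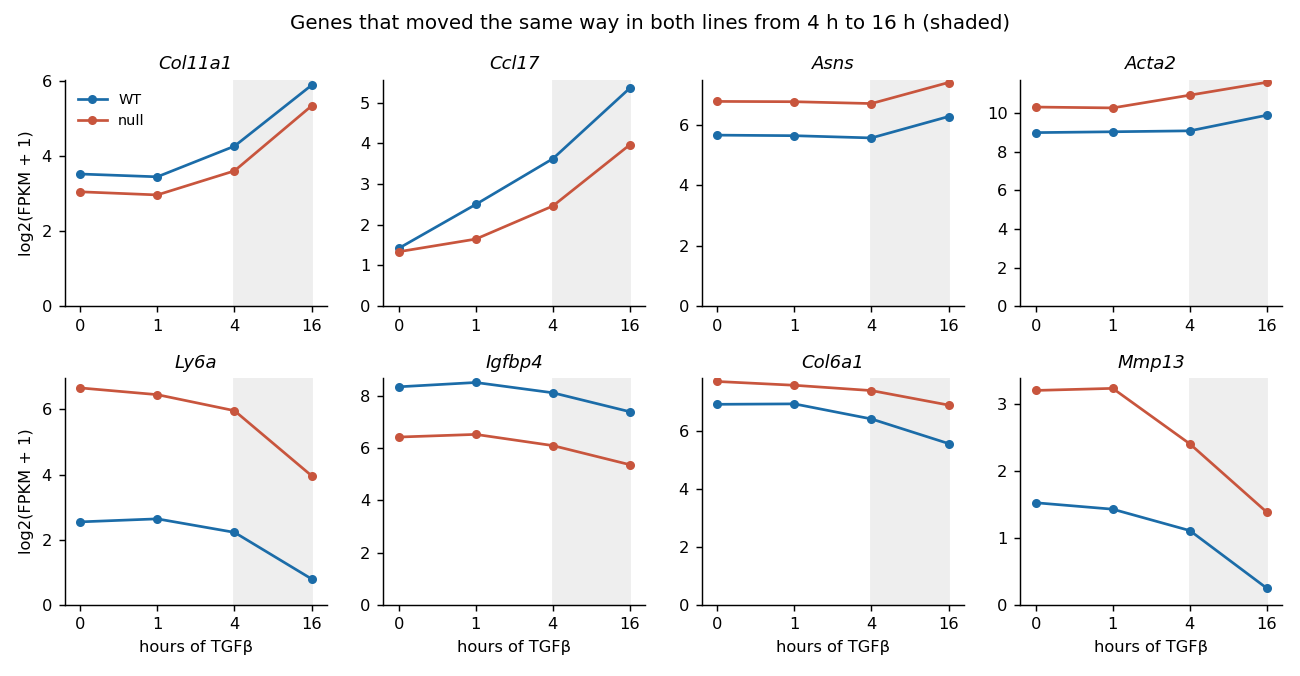
Level on the log2(FPKM + 1) scale at 0, 1, 4 and 16 h of TGFβ (times evenly spaced, not to scale) for 8 genes in WT and null, with 1 library per point and no error bar. Col11a1 goes from 18.3 to 58.5 FPKM between 4 and 16 h in WT and from 11.2 to 39.6 in null.

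Other matrix genes and the enzymes that process matrix moved with these collagens in part. Postn, a matricellular protein that binds collagen, was at 59.5 FPKM at 4 h and 212 at 16 h in null, a rise of 1.82 (SE 0.07, limma adjusted p = 8.6e-05), while in WT it was at 0.168 and 1.19 FPKM, a rise of 0.91 (adjusted p = 0.0022). The lines thus stood at levels far apart, and the rise on this scale was larger in null (WT minus null -0.91, adjusted p = 0.011). With 0.1 FPKM added in place of 1 the difference between lines turned to 0.44 and did not pass (adjusted p = 0.462). Loxl2, which crosslinks collagen and elastin, rose from 54.9 to 75.3 FPKM in WT and from 97.2 to 133 in null (0.45 in each, adjusted p = 0.031 and 0.012). Of 22 genes for collagen processing and crosslinking it alone rose in both lines, where 0.263% of all genes did. Its WT call held in 3 of the 12 fits. In null 2 of the 22 rose and 2 fell, among the latter Adamts2 (-0.68), where 2.34% and 4.68% of all genes rose and fell. Adamts4, a protease that cleaves proteoglycans, rose from 2.06 to 5.27 FPKM in WT and from 2.10 to 3.79 in null (1.03 and 0.63). Rcn3, a calcium-binding protein of the secretory pathway, rose by 0.46 in WT and 0.57 in null. Sdc2, a cell-surface heparan sulfate proteoglycan, rose by 0.44 and 0.52. Of 32 other matrix genes, 1 rose and 1 fell in WT (Postn and Nov), and 8 rose and 7 fell in null. The shares of all genes that rose and fell were 0.896% and 1.07% in WT and 2.34% and 4.68% in null.

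Contractile genes of the myofibroblast were the second group, and 3 of them were shared gains. Acta2, smooth-muscle actin, was at 511, 527, 545 and 957 FPKM in WT at 0, 1, 4 and 16 h and at 1282, 1242, 1967 and 3127 in null. In WT the 3 earlier libraries lay close together and the 16 h library stood above them, while in null 4 h already lay above 0 and 1 h. The late difference was 0.81 in WT and 0.67 in null (SE 0.08, limma adjusted p = 0.0048 in each), and both calls held in each of the 12 fits. Tpm1, a tropomyosin that lies along actin filaments, rose from 477 to 720 FPKM in WT and from 1062 to 1367 in null (0.59 and 0.36). The null call of Tpm1 held in 3 of the 12 fits. Actg2, a second smooth-muscle actin, rose from 1.18 to 2.09 FPKM in WT and from 5.57 to 15.04 in null (0.50 and 1.29), and the WT call was lost in each of the 12 fits with 1 library left out. Tagln, which binds and bundles actin, went from 594 to 994 FPKM in WT (0.74, adjusted p = 0.052) and rose from 171 to 337 in null (0.97, adjusted p = 0.01). Of 23 contractile genes tested 3 rose and 0 fell in WT, and 4 rose and 1 fell in null. The fall in null was lost in each of the 12 fits with 1 library left out. Among all genes 0.896% rose and 1.07% fell in WT, and 2.34% and 4.68% in null. With 1 library left out the WT count lay between 1 and 4, with 1 without the null libraries at 0 or 1 h of either set or rvWT 0 h, and it was 0 with quantile normalization. The median difference was 0.22 in WT and 0.08 in null, and 12 of 22 were higher at 16 h in both lines, against 25.9% of all genes. Srf, the transcription factor of many of these genes, went from 22.1 to 18.2 FPKM in WT (-0.27, adjusted p = 0.34) and fell in null from 36.9 to 20.8 (-0.80, adjusted p = 0.012).

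Genes of the amino acid response formed the third group. They are targets of ATF4, a factor made when amino acids run short or secretory load is high, and they encode amino acid synthesis enzymes, transporters and tRNA synthetases. Asns, which makes asparagine, was at 49.3, 48.7, 46.2 and 76.1 FPKM in WT and at 108, 107, 103 and 167 FPKM in null. The first 3 libraries of each line were nearly level and the 16 h library was the highest in both. The mean late difference was 0.70 ± 0.05 (SE, limma adjusted p = 0.041), with 0.71 in WT and 0.70 in null. The averaged call held in 1 of 8 fits with 1 library left out, and the calls in the single lines in each of 12. Trib3, a pseudokinase that ATF4 induces and that restrains it, rose from 6.64 to 9.77 FPKM in WT and from 14 to 39.0 in null (0.50 and 1.42), and the rise was larger in null (adjusted p = 0.014). Of 30 genes of the list tested, 2 rose in WT (Asns and Trib3) and 16 rose in null, with 0 falling in either line. Among all genes 0.896% rose in WT and 2.34% in null. The number risen in null was 11 to 16 with 1 library left out. In both lines 23 of 29 (79.3%) were higher at 16 h, where 25.9% of all genes were, and the median difference was 0.18 in WT and 0.45 in null.

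Enzymes of serine, folate and cysteine metabolism and tRNA synthetases were looked at one by one after their values had been seen. Phgdh and Mthfd2, of serine synthesis and the folate cycle, rose in null by 0.34 and 0.47 (limma adjusted p = 0.034 and 0.021), while Psat1, which acts between Phgdh and Psph, was at 406 and 409 FPKM in null (0.01, adjusted p = 0.96, and -0.05 with quantile normalization). Psph, which completes serine synthesis, rose in null from 28.7 to 51.0 FPKM (0.81, limma adjusted p = 0.019) and went from 13.5 to 21.0 in WT (0.60, adjusted p = 0.097). Shmt2, the mitochondrial enzyme that turns serine into glycine, rose in null from 73.2 to 115 FPKM (0.64, adjusted p = 0.016) and went from 67.1 to 99.8 in WT (0.57, adjusted p = 0.051). Aldh1l2, a mitochondrial folate enzyme outside the list, rose in both lines, from 3.02 to 5.76 FPKM in WT and from 19.9 to 44.4 in null (0.75 and 1.12). Cth, which makes cysteine from cystathionine, rose in null from 2.92 to 11.4 FPKM (1.67, adjusted p = 0.0012) and was at 1.31 and 1.61 FPKM in WT. This difference between lines passed (-1.49, adjusted p = 0.016). Slc3a2, the heavy chain of several amino acid transporters, rose in null from 83.6 to 125 FPKM (0.57) and was at 62.6 and 63.3 in WT (0.02, adjusted p = 0.96). Cars, the cysteinyl-tRNA synthetase and also outside the list, rose in both lines by 0.41 and 0.32, while Gars (0.45) and Aars (0.40), for glycine and alanine, passed in null and stood at 0.24 and 0.32 in WT. Stc2, a secreted glycoprotein of this response, rose in null from 1.71 to 4.87 FPKM (1.12, adjusted p = 0.022) and was at 0.162 to 0.252 in the WT libraries of set A.

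The promoters of these genes were searched for TGATGNAA, the core of the element that ATF4 binds with C/EBP partners. Of 30 list genes 25 had a promoter in the RefSeq table. The window held 250 bases before and 50 after the start. In 11 of the 25 (44.0%) it held the motif on either strand, against 191 of 8151 genes tested (2.34%). The list was made of known ATF4 targets, so a high share was to be expected and says nothing on the late change. Of the list genes named above Trib3 also held the motif, while Phgdh, Mthfd2, Psat1, Psph, Shmt2, Slc3a2 and Stc2 did not. The 250 bases before the start are shown for Asns, Gars and Aars, with the match in capitals, because these 3 hold it before the start. They were chosen after the matches were seen, from RefSeq on GRCm38.p6, at chr6:7693210-7693459 on the minus strand for Asns, chr6:55037751-55038000 on the plus strand for Gars and chr8:111033592-111033841 on the plus strand for Aars.
Asns: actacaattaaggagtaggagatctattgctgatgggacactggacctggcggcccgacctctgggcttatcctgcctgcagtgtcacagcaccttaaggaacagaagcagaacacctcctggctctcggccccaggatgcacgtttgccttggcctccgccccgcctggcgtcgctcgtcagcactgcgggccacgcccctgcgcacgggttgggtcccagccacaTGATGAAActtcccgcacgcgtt
Gars: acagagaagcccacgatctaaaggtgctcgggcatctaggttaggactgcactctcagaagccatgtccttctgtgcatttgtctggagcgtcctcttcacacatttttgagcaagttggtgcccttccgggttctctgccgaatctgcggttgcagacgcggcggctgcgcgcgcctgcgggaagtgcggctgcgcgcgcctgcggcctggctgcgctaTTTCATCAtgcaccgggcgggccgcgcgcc
Aars: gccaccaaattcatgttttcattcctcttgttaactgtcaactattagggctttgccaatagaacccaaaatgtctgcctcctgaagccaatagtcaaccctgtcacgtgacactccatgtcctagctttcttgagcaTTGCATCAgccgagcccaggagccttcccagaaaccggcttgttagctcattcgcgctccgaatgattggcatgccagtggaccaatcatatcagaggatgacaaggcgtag
The match begins 23 bases before the start in Asns, 30 bases before it in Gars and 112 bases before it in Aars. In Gars and Aars it reads as the reverse complement on the strand shown. A match in these letters is a description of the sequence and no evidence of binding.

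Lipid genes were the fourth group of gains. In both lines 19 of 23 genes of cholesterol synthesis (82.6%) were higher at 16 h, against 25.9% of all genes, with a median difference of 0.16 in WT and 0.40 in null. Of these 1 rose in WT and 9 rose in null, with 0 falling in either, and the null count ran from 6 to 13 with 1 library left out. The shares of all genes that rose were 0.896% in WT and 2.34% in null. Fdps, which makes farnesyl pyrophosphate, rose in null from 65.3 to 114 FPKM (0.80, limma adjusted p = 0.015) and was at 27.4 and 32.5 in WT. Cyp51, the lanosterol demethylase, rose in null from 40.2 to 65.4 FPKM (0.69) and was at 11.6 and 12.7 in WT, and this difference between lines passed (-0.57, adjusted p = 0.028). Idi1, an isomerase earlier in the pathway, rose in null from 50.0 to 73.9 FPKM (0.55) and went from 21.0 to 29.0 in WT (0.45, adjusted p = 0.15). Its null call held in 3 of the 12 fits with 1 library left out, those of Fdps and Cyp51 in all 12. In WT Fdps, Cyp51 and Idi1 stood at 32.5, 12.7 and 29.0 FPKM at 16 h and at 32.0, 12.7 and 32.4 FPKM at 0 h, with lower levels at 4 h.

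Fatty acid synthesis genes gave 2 rises of 12 in WT and 3 in null, where 0.896% and 2.34% of all genes rose. The counts were 1 in WT without null of set A or rvWT at 0 or 1 h or without sim 0 h, and 1 in null without any 1 library other than rvWT 4 h, sim 1 h and sim 4 h. Scd2, a stearoyl-CoA desaturase, was the shared one, at 99.8 and 161 FPKM in WT and 213 and 364 in null at 4 and 16 h (0.69 and 0.77, SE 0.07, limma adjusted p = 0.0077 and 0.0025). Its call held in both lines in each of the 12 fits. Fabp5, a fatty acid carrier, rose from 51.0 to 79.4 FPKM in WT and from 73.9 to 94.8 in null (0.63 and 0.35). Plin2, the coat protein of lipid droplets, rose by 0.40 and 0.43 and was at its highest at 16 h in both lines.

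**Figure D3:**
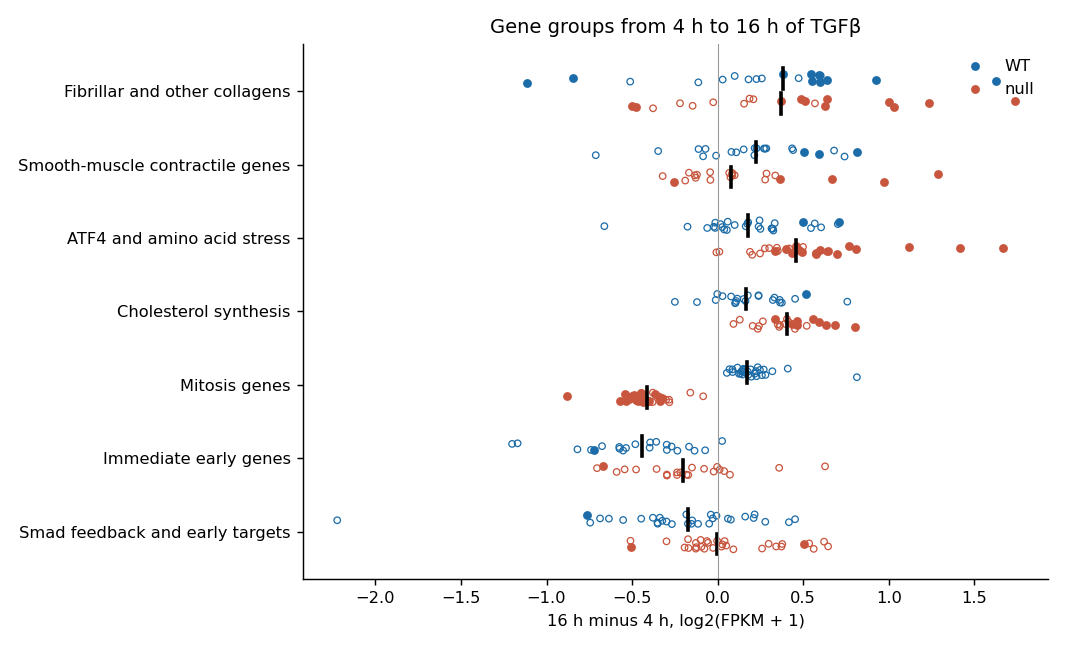
Difference between 16 h and 4 h on the log2(FPKM + 1) scale for the tested genes of 7 groups in WT and null. Filled points passed limma's test in that line, open points did not, and the black bar is the group's median, for example 0.38 in WT and 0.37 in null for collagens.

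The remaining shared gains held signalling proteins and proteins best known from blood cells. Ctsw, a cathepsin first described in cytotoxic lymphocytes, was at 1.28, 3.47, 9.92 and 45.7 FPKM in WT and at 0.380, 0.731, 3.2 and 13.7 in null. Ccl17, a chemokine that attracts T cells, was at 1.68, 4.66, 11.3 and 40.2 FPKM in WT and at 1.53, 2.14, 4.52 and 14.7 in null. Both genes were higher at each later time in each line. The late differences were 2.10 and 1.81 for Ctsw (SE 0.34) and 1.74 and 1.51 for Ccl17 (SE 0.27), and the WT call of each held in 4 of the 12 fits. Of 11 haematopoietic markers 4 were in the table, and their sum was 7.97 and 7.80 FPKM in WT and 15.9 and 13.2 in null at 4 and 16 h. Their part in the values of Ctsw and Ccl17 was not tested. Pdgfc, a platelet-derived growth factor ligand, rose from 6.54 to 10.1 FPKM in WT and from 16.2 to 23.7 in null (0.56 and 0.52). Gdpd1 (0.85 and 1.00), a phosphodiesterase, Klhl30 (0.75 and 0.38), Ccdc141 (0.78 and 0.53) and Pcyox1 (0.55 and 0.29), a prenylcysteine oxidase, complete the 29.

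Among the shared decays, Igfbp4 had the smallest p in the averaged test beside genes listed at 0. It encodes a secreted protein that binds insulin-like growth factors. It was at 325, 365, 277 and 167 FPKM in WT and at 84.9, 91.2, 67.5 and 40.2 in null. In both lines 16 h was the lowest of the 4 times, and the difference was -0.73 in each (mean -0.73 ± 0.05 SE, limma adjusted p = 0.041). The averaged call held in 1 of 8 fits with 1 library left out. Ly6a, a surface protein of stem and stromal cells, fell from 3.67 to 0.734 FPKM in WT and from 61.3 to 14.6 in null (-1.43 and -2.0). Spon2, a secreted matrix protein, fell from 8.87 to 3.69 and from 20.1 to 6.06 FPKM (-1.07 and -1.58). Ddx4, an RNA helicase of germ cells, fell from 48.6 to 15.8 FPKM in WT and from 2.14 to 0.417 in null (-1.56 and -1.15). The calls of these 4 genes in the single lines held in each of the 12 fits.

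The next 6 shared decays, grouped after their values had been seen, encode enzymes and metal-binding proteins. Gstm1, a glutathione transferase, fell from 6.25 to 3.47 FPKM in WT and from 38.4 to 15.8 in null (-0.70 and -1.23). Mgst1, a membrane-bound enzyme of the same kind, fell from 65.6 to 46.5 FPKM in WT and from 44.6 to 17.1 in null (-0.49 and -1.33), more in null (limma adjusted p = 0.016). Ugt1a6a and Ugt1a6b, which attach glucuronic acid to foreign compounds, fell by 1.22 and 1.33 on the log2 scale in WT and by 0.99 and 0.92 in null. These 2 share exons, so reads may have been split between them and their separate values are uncertain. Fth1, the ferritin heavy chain, fell from 843 to 626 FPKM in WT and from 1814 to 1141 in null (-0.43 and -0.67). Cp, a copper protein that oxidises iron, fell from 26.3 to 16.6 FPKM in WT and from 6.33 to 2.73 in null (-0.64 and -0.97).

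Others of the 43 were as follows. Timp2, an inhibitor of metalloproteinases, fell from 353 to 239 FPKM in WT and from 198 to 124 in null (-0.56 and -0.67). Mmp13, a collagenase, was at 1.88, 1.69, 1.16 and 0.185 FPKM in WT and at 8.21, 8.40, 4.29 and 1.60 in null (-0.86 and -1.02), lowest at 16 h in both lines. Lamb2, a laminin chain of basement membranes, fell by 0.61 and 0.43 on the log2 scale, Emilin2, an elastin-associated protein, by 0.80 and 0.96, and Nov, a matricellular protein, by 0.87 and 0.45. Rbp4, which carries retinol, fell from 4.19 to 0.946 FPKM in WT and from 3.78 to 1.11 in null (-1.42 and -1.18). The urothelial plaque genes Upk1b and Upk3b, whose proteins are also found in mesothelium, fell by 0.42 and 0.32 in WT and by 0.53 and 0.70 in null. Lbp, a lipopolysaccharide-binding protein, fell by 0.89 and 1.05, and the galectins Lgals2 and Lgals3 by 1.8 and 0.49 in WT and by 1.37 and 0.56 in null. The guidance proteins Slit3 and Plxna4 fell by 0.67 and 1.56 in WT and by 0.47 and 0.77 in null. Cry1, a repressor of the circadian clock, fell from 5.47 to 3.30 FPKM in WT and from 6.15 to 4.09 in null (-0.59 and -0.49), and these calls held in 0 and 2 of the 12 fits.

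In the promoters, 9 motifs were searched after values had been seen, and none was tested. TGACTCA, the AP-1 site, was found for 5 of 28 shared decays with a promoter (17.9%) and for 0 of 16 shared gains, against 344 of 8151 genes (4.22%). The 5 were Col6a1, Mmp13, Rbp4, Sbsn and Tspan4. The looser form TGANTCA, which contains every TGACTCA, was found for 9 decays (32.1%), against 5.66% of all. CAGAC, a SMAD-binding sequence, was found for 12 of the 16 gains (75.0%) and 16 of the 28 decays (57.1%), against 51.6% of all genes. The CArG box, which SRF binds, was found for 3 of 21 contractile genes (14.3%), against 1.62% of all. Many genes of that list are known SRF targets, so this share says nothing on the late change. The palindrome GTCTAGAC, a second SMAD sequence that does not contain CAGAC, was found for 0 of the gains and decays and for 0.258% of all. Antioxidant (TGACNNNGC), metal (TGCGCNC) and E-box (CACGTG) motifs were found for 25.0%, 18.8% and 6.25% of the gains, for 14.3%, 14.3% and 10.7% of the decays and for 16.9%, 31.7% and 12% of all genes. The sequences shown are the 250 bases before the start of Mmp13 (chr9:7272264-7272513, plus strand) and Col6a1 (chr10:76726045-76726294, minus strand), a protease and a matrix gene of the decays with the AP-1 site in capitals, and of Col11a1 (chr3:114030290-114030539, plus strand), the leading gain, with CAGAC as its reverse complement in capitals.
Mmp13: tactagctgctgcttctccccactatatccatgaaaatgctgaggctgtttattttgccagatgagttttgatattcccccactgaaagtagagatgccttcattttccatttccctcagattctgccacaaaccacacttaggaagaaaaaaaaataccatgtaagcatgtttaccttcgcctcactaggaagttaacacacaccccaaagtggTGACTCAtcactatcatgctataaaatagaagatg
Col6a1: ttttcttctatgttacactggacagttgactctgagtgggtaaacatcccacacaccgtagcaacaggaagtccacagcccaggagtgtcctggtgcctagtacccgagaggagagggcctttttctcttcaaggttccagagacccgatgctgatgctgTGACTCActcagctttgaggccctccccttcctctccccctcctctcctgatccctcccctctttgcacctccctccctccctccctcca
Col11a1: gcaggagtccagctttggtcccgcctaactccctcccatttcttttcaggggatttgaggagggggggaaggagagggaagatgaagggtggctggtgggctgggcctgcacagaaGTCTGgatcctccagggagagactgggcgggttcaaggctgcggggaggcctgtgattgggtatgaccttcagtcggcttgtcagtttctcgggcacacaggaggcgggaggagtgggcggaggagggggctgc
The capitals begin 35 bases before the start in Mmp13, 90 bases before it in Col6a1 and 134 bases before it in Col11a1.

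Genes of the early response were looked at as a list. Of 31 SMAD feedback and early target genes, 0 rose and 1 fell in WT and 1 rose and 1 fell in null. Of all genes 0.896% rose and 1.07% fell in WT, and 2.34% and 4.68% in null, so no difference from all genes is read from these counts. The medians of the list were -0.17 and -0.00 (0.02 in null after median-ratio scaling). Hmga2, a chromatin protein of epithelial-mesenchymal transition, fell in WT from 122 to 71.3 FPKM (-0.76, limma adjusted p = 0.01) and was at 78.3 and 79.8 in null, and the lines differed (-0.79, adjusted p = 0.027). Zeb2, a transcriptional repressor that acts in the same transition, rose in null from 5.57 to 8.31 FPKM (0.50, adjusted p = 0.029). This call of Zeb2 held in 6 of the 12 fits with 1 library left out. Tgfbi, a secreted adhesion protein, fell in null from 27.7 to 19.2 FPKM (-0.51, adjusted p = 0.02). Smad7, the inhibitory SMAD, was at 8.21, 40.1, 19.9 and 15.3 FPKM in WT and at 5.89, 24.4, 12.5 and 12.3 in null. Its peak was at 1 h in both lines and its late difference was -0.35 and -0.03 (adjusted p = 0.27 and 0.96). Snai1, a repressor of epithelial genes, was at 40.2 and 25.5 FPKM in WT and 33.0 and 33.5 in null at 4 and 16 h.

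Immediate early genes, which respond within minutes to growth factors, were lower at 16 h in both lines in 16 of 22 cases (72.7%), where 26.1% of all genes were. Their medians were -0.44 in WT and -0.20 in null, yet 1 passed in each line, where 1.96% of all genes passed in WT and 7.02% in null. Ier2 fell in WT from 33.7 to 20.0 FPKM (-0.72, limma adjusted p = 0.041) and was at 19.8 and 20.9 in null. Its WT call held in 2 of the 12 fits with 1 library left out. Zfp36, which destabilises cytokine mRNA, fell in null from 33.8 to 20.9 FPKM (-0.67, adjusted p = 0.0086) and was at 10.3 and 9.76 in WT. Genes that had changed by at least 1 on the log2 scale between 0 and 4 h in both rvWT and sim of set B were followed as well, since these libraries are not part of the late comparison. Of the 161 that rose there, 4 rose and 11 fell in WT between 4 and 16 h, and 14 rose and 5 fell in null, with medians of -0.30 and 0.14. Of all genes 0.896% rose and 1.07% fell in WT, and 2.34% and 4.68% in null. Of the 87 that fell there, 5 rose and 4 fell in WT and 2 rose and 18 fell in null, with medians of 0.09 and -0.25. The set B libraries also supply part of the spread used in the test.

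The lines differed in the late phase for 279 of 11045 genes (2.53%) by a test of WT minus null. The late change was higher in WT for 195 (1.77%) and lower in WT for 84 (0.761%). Of the 131 genes called in WT alone 39 differed between lines, and of the 689 called in null alone 191 did, so most calls in 1 line are not shown to be particular to it. All 14 genes called in opposite directions differed. The count of 279 was 103 to 151 without any 1 of the WT, null or rvWT libraries at 0 or 1 h or the sim library at 0 h. With WT-by-time terms fitted over all 16 libraries it was 46.

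Mitosis genes gave the largest block of line differences among the lists. All 30 tested were higher at 16 h than at 4 h in WT and lower in null, with medians of 0.17 and -0.41. By the test 0 changed in WT, 21 fell in null, where 4.68% of all genes did, and 15 differed between lines, where 2.53% did. The count of 15 was 5 without null 0 h or 1 h of set A, 8 without rvWT 0 h or 1 h, sim 0 h or either null library of set B, 9 without WT 0 h or 1 h, and 10 with median-ratio scaling. Ccnb2, a B-type cyclin, was at 65.5, 65.7, 56.9 and 63.3 FPKM in WT and at 67.4, 67.2, 59.9 and 32.1 in null. The lines lay close together up to 4 h, and the null 16 h library stood apart at 0.15 in WT against -0.88 in null (WT minus null 1.03, limma adjusted p = 0.0047). Top2a, which untangles DNA before division, was at 156 and 186 FPKM in WT at 4 and 16 h and at 139 and 105 in null (0.26 and -0.40, difference 0.66, adjusted p = 0.016). Prc1, which bundles the central spindle, was at 54.6 and 60.2 FPKM in WT and 63.4 and 44.5 in null (difference 0.64, adjusted p = 0.013). Birc5 (survivin) and Cdc20, an activator of the anaphase-promoting complex, fell in null from 115 to 79.8 and from 67.0 to 44.7 FPKM. Of 32 S phase genes 7 fell in null, 0 changed in WT and 3 differed between lines (1 without a null library of either set or rvWT 0 h, 2 without WT 0 h or 1 h, rvWT 1 h or sim 0 h), among them Tk1, thymidine kinase, at 63.7 and 73.0 FPKM in WT and 55.8 and 36.6 in null (difference 0.79, adjusted p = 0.013). Cell density at 16 h was not given for either line, and its part in these values was not tested.

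**Figure D4:**
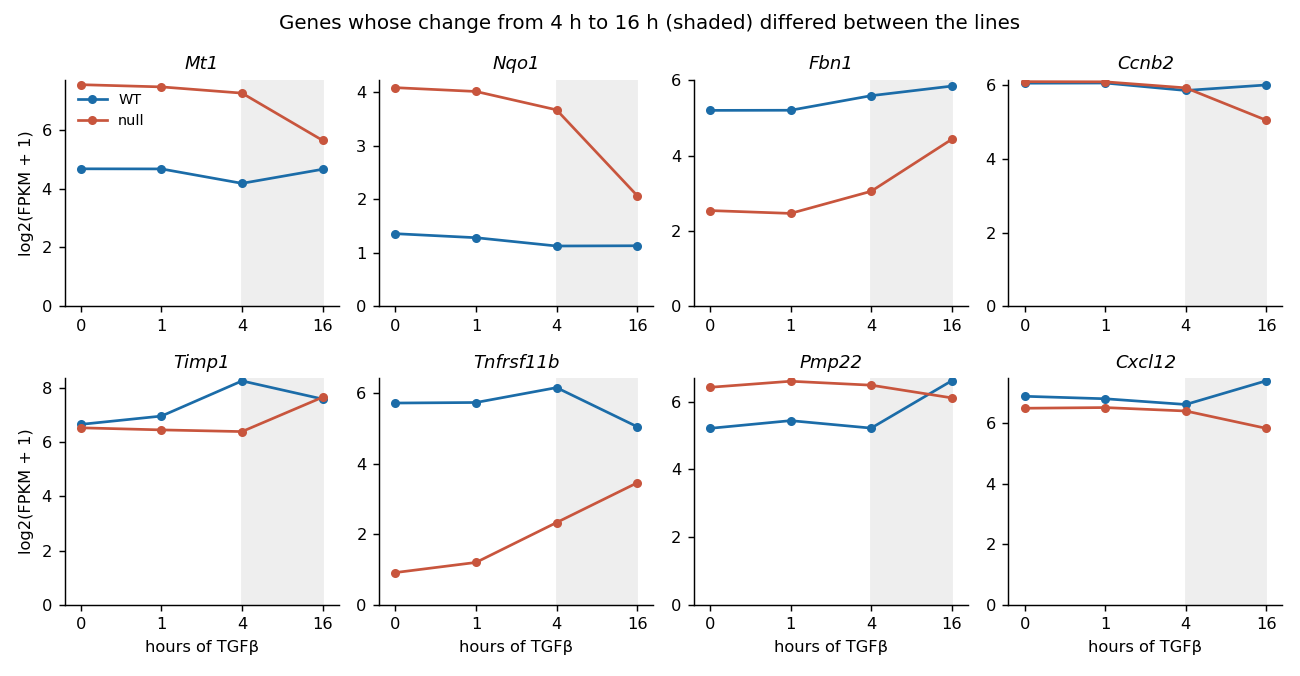
Level on the log2(FPKM + 1) scale at 0, 1, 4 and 16 h of TGFβ (times evenly spaced, not to scale) for 8 genes that differed between WT and null in the late phase, with 1 library per point and no error bar. Ccnb2 ends at 63.3 FPKM in WT and 32.1 in null.

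Metallothioneins and Nqo1 fell in null and did not pass in WT. Mt1, which binds zinc and copper, was at 24.5, 24.4, 17.1 and 24.2 FPKM in WT and at 184, 175, 151 and 48.8 in null. Mt2 was at 9.44, 8.67, 9.995 and 12.9 FPKM in WT and at 84.4, 70.6, 57.5 and 18.4 in null. In null both genes were lowest at 16 h, still above the WT level. The late difference was 0.48 in WT and -1.61 in null for Mt1 (WT minus null 2.09, limma adjusted p = 0.0075) and 0.34 and -1.59 for Mt2 (1.93, adjusted p = 0.011). Nqo1, a quinone reductase of the NRF2 response, was at 16.0, 15.2, 11.8 and 3.2 FPKM in null and between 1.18 and 1.56 in WT (-1.61 in null, 0.00 in WT, difference 1.61, adjusted p = 0.0035). Srxn1, sulfiredoxin, went from 16.1 to 18.6 FPKM in WT and fell from 16.7 to 12.6 in null (difference 0.58, adjusted p = 0.039). Of 19 genes of this list 2 fell in WT (Gsta4 and Gstm1) and 6 in null, and 4 differed between lines. Among all genes 1.07% fell in WT, 4.68% fell in null and 2.53% differed between lines. For Mt1, Mt2 and Nqo1 the WT levels were far lower from the start. For Nqo1 they left less room on this scale than the fall in null, so no difference between lines is read from it.

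Proteases and their inhibitors are given next. Mmp3, stromelysin, fell in null from 11 to 1.71 FPKM, after 16.4 and 13.3 at 0 and 1 h, and was at or under 0.383 in every WT library of set A (-2.14 in null, limma adjusted p = 0.00058). At such WT levels this scale leaves hardly any fall to measure, so no difference between lines is read from it. Mmp9, a gelatinase, rose in null from 6.93 to 23.7 FPKM (1.64, adjusted p = 0.0069) and went from 0.306 to 0.995 in WT (0.61, adjusted p = 0.22), and the difference between lines did not pass (adjusted p = 0.13). Timp1 was at 99.8, 124, 305 and 192 FPKM in WT and at 91.3, 86.5, 82.8 and 201 in null. It was highest at 4 h in WT and at 16 h in null, and the lines ended close to each other. The late difference was -0.67 in WT (adjusted p = 0.21) and 1.27 in null (adjusted p = 0.02), and WT minus null was -1.94 (adjusted p = 0.032). Timp3 rose in null from 545 to 806 FPKM (0.56) and was at 577 and 511 in WT (difference -0.74, adjusted p = 0.036).

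Opposite calls in the 2 lines were found for 14 of 11045 genes. Tnfrsf11b, the decoy receptor osteoprotegerin, was at 52.0, 52.6, 70.8 and 32.3 FPKM in WT and at 0.886, 1.30, 4.05 and 10.0 in null (-1.11 and 1.13, difference -2.24, limma adjusted p = 0.015). It was lowest at 16 h in WT and highest at 16 h in null. Pmp22, a myelin protein also made by growth-arrested fibroblasts, was at 36.0, 42.3, 36.2 and 97.1 FPKM in WT and at 84.8, 96.1, 88.6 and 68.1 in null (1.40 and -0.38, difference 1.77, adjusted p = 0.0031). Cxcl12, a chemokine for haematopoietic cells, rose in WT from 97.2 to 168 FPKM and fell in null from 83.6 to 55.8 (0.78 and -0.57, difference 1.36, adjusted p = 0.019). Ank, a transporter linked to pyrophosphate outside the cell, fell in WT from 56.3 to 23.5 FPKM and rose in null from 31.7 to 43.9 (difference -1.68, adjusted p = 0.0047). Ltbp1, which holds latent TGFβ in the matrix, fell in WT from 74.9 to 56.8 FPKM and rose in null from 24.2 to 33.8 (-0.39 and 0.47, difference -0.86, adjusted p = 0.012). Flt1, a receptor of vascular endothelial growth factor, fell in WT from 12.6 to 7.55 FPKM and rose in null from 2.81 to 4.33 (difference -1.15, adjusted p = 0.013). The others rose in WT and fell in null (Ckap2l, Gcdh, Mir3061, Ndrg3, Sdpr and Slc9a3r1) or the reverse (Ext1 and Olfml2b). Several of these calls were weak. Of the 12 fits with 1 library left out, the WT call held in 0 for Ndrg3 and in 2 for Ckap2l, Ltbp1 and Slc9a3r1. It held in 3 for Cxcl12 and Olfml2b, and the null call of Cxcl12 also held in 3.

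Matrix genes differed between lines in both directions. Fbn1, fibrillin of elastic microfibrils, rose in null from 7.29 to 20.6 FPKM (1.38, limma adjusted p = 0.0016) and went from 47.2 to 56.5 in WT (0.25, difference -1.13, adjusted p = 0.02). Fbln5, which helps elastic fibres assemble, rose in null from 24.8 to 49.5 FPKM and went from 13.5 to 16.8 in WT (difference -0.68, adjusted p = 0.038). Col12a1, a collagen on the surface of fibrils, rose in null from 37.7 to 76.5 FPKM (1.00) and went from 15.3 to 18.1 in WT (difference -0.77, adjusted p = 0.031). Nid2, a basement membrane linker, fell in null from 28.2 to 14.2 FPKM and was at 1.37 and 1.32 in WT (difference 0.92, adjusted p = 0.016). Prelp, a leucine-rich matrix protein, fell in null from 8.38 to 3.23 FPKM and was at or under 0.266 in WT, too low to compare the changes. Col3a1, of collagen III, rose in WT from 7.32 to 11.6 FPKM (0.60) and was at 309 and 279 in null (-0.15, difference 0.74, adjusted p = 0.015). Tnc, tenascin C, rose in null from 19.9 to 43.2 FPKM (1.08) and went from 30.7 to 39.9 in WT (0.37, adjusted p = 0.21), without a difference that passed (adjusted p = 0.089). Col4a1 and Col4a2, the paired chains of basement membrane collagen, rose in WT by 0.55 each and stood at 0.15 and 0.19 in null, and these differences did not pass either (adjusted p = 0.12 and 0.13).

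Some growth factors and a cytokine receptor were called in 1 line alone. Igf2, insulin-like growth factor 2, rose in null from 3.79 to 13.9 FPKM (1.64, limma adjusted p = 0.0036) and went from 25.4 to 33.9 in WT (0.41). The difference between lines was -1.23 (adjusted p = 0.049) and passed in 0 of the 12 fits with 1 library left out. Btc, a ligand of the EGF receptor, was at 32.9, 28.4, 17.3 and 5.57 FPKM in WT, lower at each later time (-1.48 between 4 and 16 h, adjusted p = 0.0048), and at or under 0.543 in null. Il1rl1, the interleukin-33 receptor, rose in null from 47.6 to 91.0 FPKM (0.92) and was at 8.68 and 7.19 in WT (difference -1.16, adjusted p = 0.03). Stc1, a secreted glycoprotein, rose in null from 1.73 to 7.57 FPKM (1.65) and was at or under 0.537 in WT. Dynap rose in null from 1.51 to 14.8 FPKM (2.66, adjusted p = 0.00058) and was at or under 0.168 in WT. For Btc, Stc1 and Dynap the line at the low level leaves the changes of the 2 lines not comparable. Cx3cl1, a membrane-bound chemokine, rose in WT from 17.1 to 32.5 FPKM (0.89, adjusted p = 0.035) and was at 36.1 and 29.9 in null (difference 1.15, adjusted p = 0.039). Its WT call and its line difference held in 2 of the 12 fits each.

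Some of the largest values rest on 1 library. Sept7, a septin that every dividing cell uses, was listed at 0 in null 4 h alone, and at 78.7 to 127 FPKM in the other 7 libraries of set A. Ankle2 was at 0.0514 FPKM in WT 16 h and at 7.15 to 11.8 in the others. Ttpal was at 0.306 FPKM in WT 4 h and at 6.67 to 7.76 in the others. Dhrs3 was at 0.098 FPKM in WT 4 h and at 1.39 to 1.92 in the other WT libraries. Per1 was at 0.0432 FPKM in null 16 h and between 4.87 and 13 in the others. A dip of this kind in a single library passes the test as a late change.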

How the data were processed

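The authors deposited 1 table of FPKM values for 12100 genes and 16 libraries, under RefSeq identifiers (11458 coding, 642 non-coding). CASAVA 1.8.2, STAR 2.3.0e, SAMtools, Cufflinks 2.2.1 and mm9 are named per the submitters' processing notes, with no role given, and libraries were poly(A)-selected with a stranded kit, per the labels' protocols. The deposited table holds no read counts, so depth and counting error are unknown, and total FPKM ran from 397019 to 424998 in set A. The design text speaks of 2 sequencing batches. The 4 libraries compared carry names of 1 set (HS_A), so they were compared within it.

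Values were taken as log2(FPKM + 1) for genes with a mean of at least 1 FPKM and tested with limma-trend (limma 3.58.1, R 4.3.3), Benjamini-Hochberg adjusted over all genes tested, at adjusted p below 0.05. The mean of both lines was fitted over 8 libraries with line as a block and time as a factor. Each line, and WT minus null, was fitted over 16 libraries with an own mean for each of the 4 libraries compared, so that the spread came from the 12 others (series as a block, time as a factor), which assumes that the 4 vary like the 12. The scripts were tested on simulated data.

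The members, the 42 gene lists and the rule for named genes were chosen with earlier results of these data known. The rule left out small RNAs and took the 15 largest rises and falls of the averaged test that moved by at least 0.3 in both lines and reached 5 FPKM on the higher side. Fewer than 5 passed each way, so the 5 with the smallest p were taken. It added up to 4 genes of each list with the smallest p, the 10 largest differences between lines each way, the 5 largest set B changes each way, all SMAD feedback genes and Rnf111. Some genes that the rule took are not reported here. The genes that passed in both lines, the other members named in gene groups, the motifs and the promoters shown were added after their values were seen. Promoters came from RefSeq on GRCm38.p6, matched by symbol. No coordinates of the mm9 build were used. Alternatives were pseudocounts, filters, scalings, variance settings, other model terms and each library left out.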

Additional observations from a re-analysis of the deposited data

Results flagged for a closer look

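The late change differed between WT and null, by limma's test of the difference itself over 11045 genes (adjusted p below 0.05), for 60 of the genes named. Values are the late change in WT minus that in null on the log2(FPKM + 1) scale, and are not differences in level. In each of the 12 fits that left out a library 34 of the 60 passed, and these fits changed the spread and not the values. Igf2 and Plxna4 passed in 0 of these fits, Snrk in 1, and Col6a2, Cx3cl1, Lipa, Lzts2, Txnip and Upk3b in 2. Actg2, Fbln5, Srxn1 and Timp3 passed in 3. Detoxification and metal genes had a higher late change in WT, with Mt1 at 2.09, Mt2 at 1.93, Mgst1 at 0.84 and Srxn1 at 0.58. Nqo1 stood at 1.61, but its WT level left less room on this scale than its fall in null. The late change of division genes was higher in WT too, with Ccnb2 at 1.03, Tk1 at 0.79, Top2a at 0.66, Birc5 at 0.65, Cdc20 at 0.64 and Prc1 at 0.64.

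Matrix genes and their proteases and inhibitors lay on both sides. Nid2 stood at 0.92 and Col3a1 at 0.74. On the lower side were Col6a2 at -0.63, Fbln5 at -0.68, Timp3 at -0.74, Col12a1 at -0.77, Ltbp1 at -0.86, Postn at -0.91, Fbn1 at -1.13 and Timp1 at -1.94.

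Signalling and surface proteins with a higher late change in WT were Pmp22 at 1.77, the growth-arrest protein Gas1 at 1.73, Cxcl12 at 1.36, Cx3cl1 at 1.15 and Upk3b at 0.37. The late change was lower in WT for Hmga2 at -0.79, Plxna4 at -0.79, Flt1 at -1.15, Cdh11 at -0.78, Il1rl1 at -1.16, Igf2 at -1.23, Ank at -1.68 and Tnfrsf11b at -2.24. Of the other genes with opposite calls in the lines, Sdpr stood at 1.43, Slc9a3r1 at 1.12, Gcdh at 0.94, Ndrg3 at 0.84, Ckap2l at 0.73, Olfml2b at -0.67 and Ext1 at -0.81. Among metabolic and contractile genes Lipa, a lysosomal lipase, stood at 2.09, Txnip, a glucose-responsive arrestin, at 1.70, Cyp51 at -0.57, Actg2 at -0.79, Trib3 at -0.92 and Cth at -1.49.

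Ttpal at 2.42, Ankle2 at -3.80 and Sept7 at -6.70 each rest on 1 low library (WT 4 h, WT 16 h and null 4 h), and for Dhrs3 at 2.82 WT 4 h was the lowest library. Mir3061, a small RNA at 6.91, was listed at 0 in 3 of the 4 null libraries of set A. In 5 genes 1 line was below 1 FPKM at 4 and 16 h, so no difference in change is read from their values. They are Mmp3 at 2.40, Prelp at 1.09, Stc1 at -1.60 and Dynap at -2.48, low in WT, and Btc at -1.66, low in null. The kinase Snrk stood at 1.83, the asparaginyl-tRNA synthetase Nars at -1.83 and Lzts2 at -2.41. Nars was at 25.2 FPKM in WT 16 h and at 58.4 to 124 in the other libraries of set A.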

How the results depend on the processing

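The averaged test called 10 genes with a pseudocount of 0.1, 1 without genes that drop out and 207 when fitted over all 16 libraries, and 72 genes passed in both lines separately. Its count ran from 3 to 32 with 1 library left out, 3 without WT 1 h, 10 without WT 4 h, 17 without null 16 h and 32 without WT 16 h, the last 2 with 1 line at 16 h. With an added threshold of 1 on the log2 scale 45 genes passed in WT, 94 in null, 76 for WT minus null and 9 in both lines. WT-by-time terms gave 46 for WT minus null. With 1 of 12 libraries left out the counts ran from 70 to 223 in WT, 493 to 866 in null, 103 to 298 for WT minus null and 26 to 81 in both lines. The WT count was 70 to 141 without any 1 of the 12 other than WT 0 h, rvWT 4 h and sim 4 h, the null count 493 to 516 without a null library of either set, the count for WT minus null 103 to 151 without any 1 other than rvWT 4 h, sim 1 h and sim 4 h, and the count in both lines 26 to 46 without WT 1 h, sim 0 h, rvWT 0 or 1 h or a null library. Under the other filters, scalings and variance settings these counts stayed within 1.5 times. Of single named genes, Postn turned to 0.441 for WT minus null with a pseudocount of 0.1, and Nqo1 to -0.003 and Prelp to 0.007 in WT with median-ratio scaling and quantile normalization, and Psat1 to -0.052 in null with the latter, none of them passing, and the cause was not tested. The set B medians averaged over lines were -0.03 and -0.10, and -0.028 and -0.115 after median-ratio scaling. The averaged test compared 16 h with 4 h within each line, with the line as a block, and the labels carry no replicate numbers for another pairing. Depth is unknown, so the error of low values could not be given.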

Other observations

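Of 23 lysosome and autophagy genes 4 fell in null and 1 in WT, where 4.68% and 1.07% of all genes fell. The null count was 2 without a null library of either set, and the WT count was as low as 0 with 1 library left out. Among them was the cathepsin Ctsb, going from 68.4 to 50.4 FPKM in null (-0.43, limma adjusted p = 0.0056) and from 28.6 to 25.7 in WT (-0.15, adjusted p = 0.23). Per2, a repressor of the circadian clock, fell in null from 3.17 to 1.22 FPKM (-0.91, adjusted p = 0.0089) and went from 2.11 to 1.05 in WT (-0.60, adjusted p = 0.073). Of 19 clock genes 4 fell in null and 1 in WT, where 4.68% and 1.07% of all genes fell. These counts were as low as 2 and 0 with 1 library left out. Among the falls in null was Per1 (-2.49), which rests on the low null 16 h library given above. Wnt4, a secreted Wnt ligand, fell in null from 6.69 to 2.2 FPKM (-1.27, adjusted p = 0.0066), and the Notch ligand Jag1 rose in null from 15 to 27.7 FPKM (0.84, adjusted p = 0.021) and stood at 69.4 and 68.3 in WT. Cdh11, a cadherin of mesenchymal cells, rose in null from 55.1 to 97.9 FPKM (0.82, adjusted p = 0.0043) and was at 11 and 11.3 in WT, and this difference between lines passed (-0.78, adjusted p = 0.032) and held in 6 of 12 fits with 1 library left out.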
